A study of Mus musculus with 2 samples.

Results

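The MYC-MAX network is a family of 10 genes here, Myc, Mycn, Mycl, Max, Mga, Mnt, Mxd3, Mxd4, Mlx and Mxi1, taken by name from 21938 protein-coding nuclear genes of the GENCODE annotation (mouse release 21). For each gene, peaks of the chromatin remodeler SRCAP were sought in the promoter, defined as 1000 bp upstream to 500 bp downstream of the transcription start site (TSS) of any annotated transcript. SRCAP is the ATPase of the complex that places the histone variant H2A.Z in nucleosomes, and the study asked how its loss affects chromatin and transcription. Both libraries come from SYAT cells, CGR8 mouse embryonic stem cells (mESC) in which YPet-AID was knocked in at the 3′ end of both Srcap alleles, YPet being a fluorescent protein and AID a degron that auxin activates. SYAT cells descend from 1 homozygous clone that was given the receptor OsTir1 under the EF1a promoter and then sorted for cells able to lose SRCAP. They were kept with auxinole, which holds back basal degradation and whose concentration the labels give in nM and the methods in µM, and they were moved to serum and LIF medium before the experiment. CUT&Tag with an antibody against GFP, which also binds YPet, was run on 200000 cells per library with 1 h of transposition, together with Drosophila nuclei and an anti-H2Av antibody as a spike-in. The 2 libraries form 1 group, and auxin-treated or untagged cells were not analysed here. The study's reporting statement describes replicates in general as independently grown and treated cells, so the 2 libraries were read as biological duplicates.

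MYC, MYCN and MYCL are basic helix-loop-helix leucine zipper factors that bind DNA as heterodimers with MAX at the E-box, CACGTG, and promote growth and ribosome production. MAX also pairs with MXD proteins, MXI1, MNT and MGA, which compete with MYC for MAX and for E-boxes, the first ones by recruiting the SIN3-HDAC corepressor and MGA as part of the Polycomb complex PRC1.6. MLX is a second hub that pairs with some MXD proteins, MNT and the glucose-sensing Mondo factors MLXIP and MLXIPL. In mESC, Myc and Mycn support self-renewal, and MGA with MAX keeps germ cell genes silent.

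The stretches below show promoter DNA under the peaks, since the E-box is the site the network itself reads. All are mm10, read 5′ to 3′ on the strand of the gene, and the longer ones end before the TSS named. Capitals mark matches, on either strand, to any of 7 short motifs: CACGTG (E-box), CCAAT (NFY), GGGCGG (GC box of SP and KLF factors), CGGAAG (ETS), TGCGCA (NRF1 core), ATGGCGG (YY1 core) and GGCGGGA (E2F). The last can overlap GGGCGG, and adjoining matches then run together. At Mga, whose replicate 2 peak had the highest score of the members in that list, the 300 bases up to the TSS (chr2:119896928-119897227, + strand) hold a GC box and an NRF1 core.
Mga: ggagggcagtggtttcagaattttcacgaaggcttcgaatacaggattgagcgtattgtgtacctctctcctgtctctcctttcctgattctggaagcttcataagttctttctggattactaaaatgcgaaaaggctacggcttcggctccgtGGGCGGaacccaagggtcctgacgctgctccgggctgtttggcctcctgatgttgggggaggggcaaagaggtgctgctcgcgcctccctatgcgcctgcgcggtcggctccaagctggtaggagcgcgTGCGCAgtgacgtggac
At Mxd4, the whole replicate 2 peak (chr5:34187762-34188022, − strand) holds an E-box between CCAAT matches, and it lies inside the replicate 1 peak.
Mxd4: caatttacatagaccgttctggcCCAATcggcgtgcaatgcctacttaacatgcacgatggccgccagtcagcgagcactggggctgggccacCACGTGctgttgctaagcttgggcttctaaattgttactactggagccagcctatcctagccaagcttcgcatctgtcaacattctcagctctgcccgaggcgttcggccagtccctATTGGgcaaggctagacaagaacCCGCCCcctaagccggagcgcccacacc
At Mxd3, the 300 bases of the peak nearest the gene (chr13:55329875-55330174, − strand) hold an E-box beside GC boxes and E2F matches.
Mxd3: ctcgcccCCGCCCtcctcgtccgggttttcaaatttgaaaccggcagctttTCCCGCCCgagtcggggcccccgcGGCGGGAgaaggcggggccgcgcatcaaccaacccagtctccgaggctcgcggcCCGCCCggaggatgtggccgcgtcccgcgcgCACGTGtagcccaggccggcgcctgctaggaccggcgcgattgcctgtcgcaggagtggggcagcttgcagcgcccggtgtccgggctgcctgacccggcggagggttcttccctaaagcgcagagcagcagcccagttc
At Mlx, the last 300 bases of the peak (chr11:101086963-101087262, + strand) hold an E-box close to the TSS.
Mlx: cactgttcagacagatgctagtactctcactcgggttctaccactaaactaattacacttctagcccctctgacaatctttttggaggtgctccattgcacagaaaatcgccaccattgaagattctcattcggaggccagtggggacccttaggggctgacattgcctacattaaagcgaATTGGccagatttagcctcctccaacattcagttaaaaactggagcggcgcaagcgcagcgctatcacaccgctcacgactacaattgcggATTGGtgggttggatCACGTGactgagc
At Mxi1, the 91 bases of the replicate 2 peak that precede the internal TSS (chr19:53330317-53330407, + strand) hold none of the motifs and serve as an example without an E-box.
Mxi1: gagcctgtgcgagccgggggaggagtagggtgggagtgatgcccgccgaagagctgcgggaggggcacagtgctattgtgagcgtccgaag
For contrast, E-boxes that lay outside called peaks are given with short flanks for Max (chr12:76962234-76962263, − strand), which had no promoter peak, and for Mnt (chr11:74830789-74830818, + strand), whose 2 peaks lay farther upstream and in an intron. In these 2 lines capitals mark the E-box alone.
Max: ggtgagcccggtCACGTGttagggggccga
Mnt: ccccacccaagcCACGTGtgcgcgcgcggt

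Promoter peaks were called at 3 of 10 members in replicate 1 (30%, exact 95% binomial interval 6.67 to 65.2%), where 15.7% of all protein-coding genes had one. In replicate 2 they were called at 6 of 10 members (60%, 26.2 to 87.8%), where the background was 30.4%. Mga, Mxd4 and Mxi1 had a promoter peak in both replicates (3 of 10), beside 12.0% of all genes. Mnt, Mxd3 and Mlx had one in replicate 2 only, and Myc, Mycn, Mycl and Max had none in either list. The mean was 4.5 ± 2.12 members (SD, n = 2). These intervals cover counting error over genes, and no test was made, because the members were chosen with results of these data known and there is 1 group. The members had a median of 5 TSSs and 4026 bp of promoter sequence, more than the 3 TSSs and 3002 bp of protein-coding genes, and the part of this in their shares was not tested.

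By role, most members with a peak encode MAX-binding antagonists. Of Mga, Mnt, Mxd3, Mxd4 and Mxi1, 3 of 5 had a promoter peak in replicate 1 (exact 95% interval 14.7 to 94.7%, background 15.7%) and 5 of 5 in replicate 2 (47.8 to 100%, background 30.4%). Of the MYC proteins and MAX, 0 of 4 had one in each replicate, a share whose exact 95% interval reaches 60.2%. With so few genes, the difference between these groups was not tested. The dimer partner Mlx had one in replicate 2. The lists hold 6158 and 12958 called peaks and no read numbers, so depth is unknown and a gene without a peak is one at which none passed the authors' threshold, not one shown to lack SRCAP. The counts depended on the settings: a minimum score of 50 left 1 and 3 members, with 0 in both lists (background 4.21%, 13.1% and 2.99%). A TSS required inside the peak left 3 and 2 members, with 2 in both lists (background 9.73%, 20.6% and 6.97%), so replicate 2 stood near its background. With replicate 2 shortened to the length of replicate 1, it kept 3 members (background 19.2%), and Mga was the single member left in both, 1 of 10 beside a background of 9.69%.

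**Figure D1:**
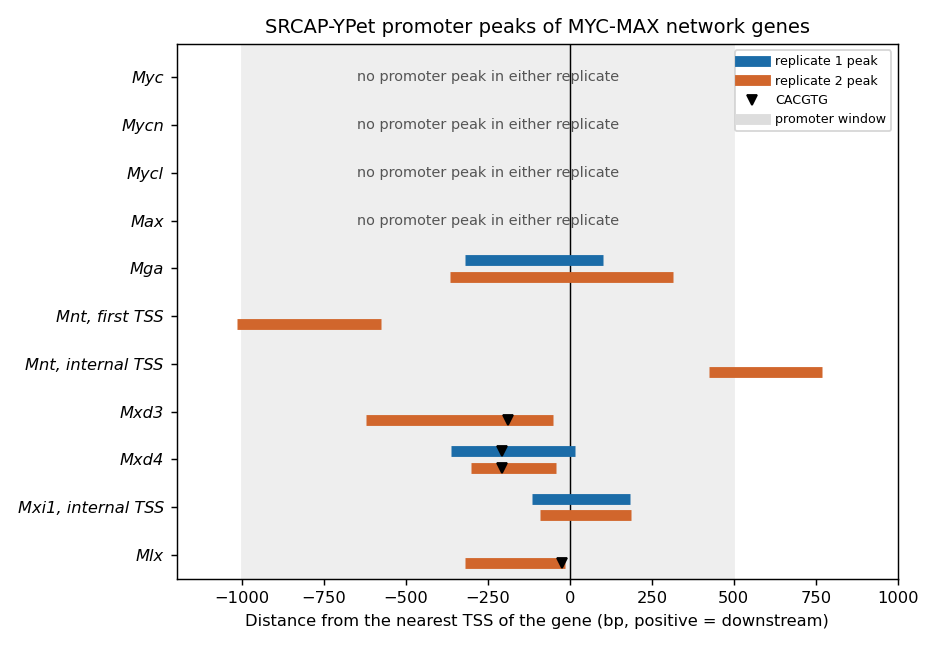
SRCAP-YPet promoter peaks of the 10 members, drawn by their distance in bp from the nearest TSS of the gene (x axis, positive is downstream), with replicate 1 in blue, replicate 2 in orange, the promoter window in grey and CACGTG matches as triangles. Mga, Mxd4 and Mxi1 carry a bar in each replicate, the E-box matches sit in the Mxd3, Mxd4 and Mlx peaks, and the 4 upper genes have none.

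Mga encodes the largest protein of the network, a MAX partner with an added T-box domain, and lies at chr2:119897228-119969581 on the + strand (ENSMUSG00000033943.15). Its replicate 1 peak covered chr2:119896909-119897329, a width of 421 bp with a score of 36. In replicate 2 the peak covered chr2:119896861-119897543, 683 bp with a score of 82. The score is the peak caller's value, 10 times the −log10 of the q-value as a whole number. It grows with depth, so it serves here only for ranks within a list. By score, the Mga peak stood in the top 47.1% of promoter peaks in replicate 1 and in the top 13.3% in replicate 2. Both peaks held the first TSS of Mga, with 4 annotated TSSs inside each. Their midpoints lay 109 bp and 26 bp upstream of the first TSS, and the replicate 1 peak was contained whole in the replicate 2 peak. The mean width was 552 ± 185 bp (SD, n = 2), the widest spread of the members found in both replicates, while the midpoints differed by 83 bp.

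Mxd4, which encodes an MXD repressor linked to differentiation, lies at chr5:34173883-34187720 on the − strand (ENSMUSG00000037235.13). In replicate 1 its peak covered chr5:34187703-34188083, 381 bp with a score of 45. In replicate 2 it covered chr5:34187762-34188022, 261 bp with a score of 24. The midpoints lay 173 bp and 172 bp upstream of the first TSS and thus differed by 1 bp, the closest match among the members. Edges agreed less well, since the replicate 1 peak reached 17 bp into the gene and held 2 TSSs, whereas the replicate 2 peak ended 42 bp before it. The mean width was 321 ± 84.9 bp (SD, n = 2). It stood in the top 31.3% of promoter peaks in replicate 1 and in the top 83.3% in replicate 2. The lists differ in length and their depth is unknown, so these places are not read as a difference at the gene.

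Mxi1 encodes a further MAX partner of the MXD type and lies at chr19:53310518-53375810 on the + strand (ENSMUSG00000025025.14). Its peaks were not at the first TSS of the gene but about an internal TSS at position 53330408, which starts a protein-coding transcript. The replicate 1 peak covered chr19:53330293-53330590, 298 bp with a score of 61. The replicate 2 peak covered chr19:53330317-53330593, 277 bp with a score of 25. Their midpoints lay 33.5 bp and 47 bp downstream of the internal TSS, in the untranslated part of that transcript's first exon. This gene had the closest peak outlines, with 91.9% of the replicate 1 peak and 98.9% of the replicate 2 peak shared and a mean width of 287.5 ± 14.8 bp (SD, n = 2). Within each list, it stood in the top 15.9% of promoter peaks in replicate 1 and in the top 81.5% in replicate 2. RefSeq places Mxi1 starts at 53310506, 53329413 and 53329695, and the midpoints lay 746.5 bp and 760 bp downstream of the last of these.

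Mnt, Mxd3 and Mlx were found in replicate 2 only. Mnt, which encodes the broadly expressed MAX partner that opposes MYC, lies at chr11:74830920-74845725 on the + strand (ENSMUSG00000000282.12) and was the only member with more than 1 promoter peak. The first, chr11:74829903-74830343, was 441 bp wide with a score of 73, in the top 18.0% of promoter peaks. Its midpoint lay 797 bp upstream of the first TSS, and its far edge, at −1017 bp, passed the border of the promoter window. The second, chr11:74837891-74838238, was 348 bp wide with a score of 30 and lay in an intron, 596.5 bp downstream of an internal TSS. It overlapped the promoter window by 78 bp, the smallest overlap of any member peak. In replicate 1 the nearest peak was 59.331 kb away.

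Mxd3, which encodes an MXD protein known from proliferating cells, lies at chr13:55325168-55329823 on the − strand (ENSMUSG00000021485.14). Its peak at chr13:55329875-55330444 was 570 bp wide with a score of 56, in the top 31.4% of promoter peaks of replicate 2. The midpoint lay 336.5 bp upstream of the first TSS and the near edge 52 bp upstream. That TSS starts a transcript annotated with a retained intron, not as protein-coding. Mlx lies at chr11:101087277-101092207 on the + strand (ENSMUSG00000017801.15). Its peak at chr11:101086957-101087262 was 306 bp wide with a score of 26, in the top 79.6%, and ended 15 bp before the TSS. The nearest replicate 1 peaks were 32.86 kb from a Mxd3 TSS and 30.152 kb from a Mlx TSS.

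**Figure D2:**
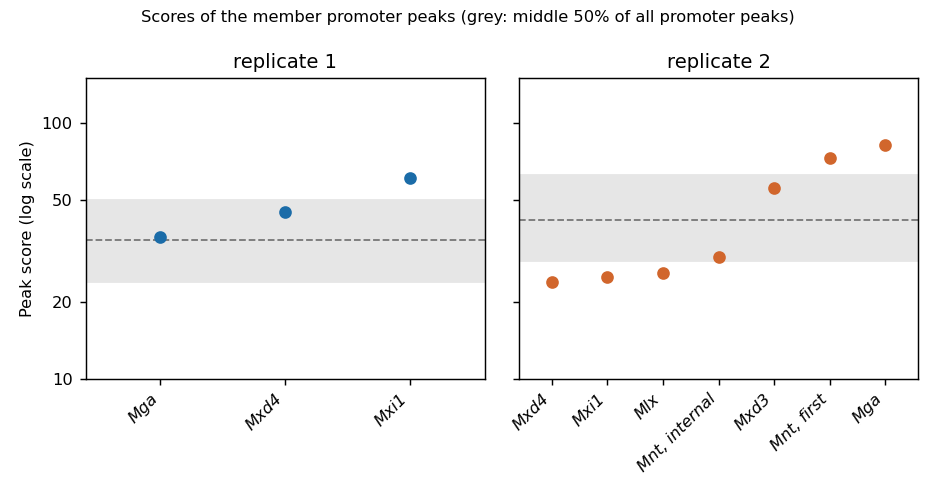
Scores of the member promoter peaks on a log axis, 1 point per peak, for replicate 1 (left) and replicate 2 (right), with the median (dashed) and the middle 50% (grey) of all promoter peaks of the same list. In replicate 1 the points run from 36 to 61 with the list median at 35, and in replicate 2 from 24 to 82 with the median at 42, so the panels are read separately.

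The member peaks lay above the median score of promoter peaks in replicate 1 and on both sides of it in replicate 2. In replicate 1 the 3 member peaks had a median score of 45 and a median width of 381 bp, beside 35 and 351 bp for all 3342 promoter peaks. In replicate 2 the order was the opposite, with 30 and 348 bp for the 7 member peaks beside 42 and 404 bp for all 6713. Mxi1 scored highest of the members in replicate 1 and Mga in replicate 2. The median distance of the midpoint from the nearest TSS of the gene was 109 bp and 172 bp for members. For all promoter peaks, which include those of noncoding genes, it was 121 bp and 123.5 bp, measured to the nearest TSS of any gene. With so few member peaks these medians shifted with the settings, the distance to 33.5 bp in replicate 1 at a score of at least 50 and to between 36.5 bp and 336.5 bp in replicate 2, and the replicate 2 width to as much as 570 bp. Member peaks had a median GC content of 59.1% in replicate 1 and 59.0% in replicate 2, where all promoter peaks had 63.5% and 62.6%. No promoter window of another gene overlapped any member peak, so each of these peaks was assigned to 1 gene.

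For the MYC genes and Max, the distance from a TSS to the nearest called peak was read from each list. In replicate 2 they were the members without a promoter peak, and in replicate 1 their distances overlapped those of Mnt, Mxd3 and Mlx, since Mycl was nearer to a peak than these 3. Myc (chr15:61985391-61990374, + strand, ENSMUSG00000022346.15) had 0 peaks in the gene and 50 kb on either side in each list. From a Myc TSS, the nearest peak lay 105.275 kb downstream in replicate 1 (score 45) and 91.557 kb downstream in replicate 2 (score 43). These were different peaks, both in introns of Pvt1, the long noncoding RNA gene next to Myc. The replicate 2 peak also overlapped the promoter window of Gm27782. Pvt1 and Gm27782 are named here after their values were seen. Mycn (chr12:12936093-12941914, − strand, ENSMUSG00000037169.15), the paralog also known from neural progenitors, had its nearest peak 35.735 kb downstream in replicate 1 and 12.917 kb downstream in replicate 2. The latter, an intergenic peak with a score of 38, was the closest to a TSS of any member without a promoter peak. Mycl (chr4:122995652-123002485, + strand, ENSMUSG00000028654.13), the paralog known from lung cancer and dendritic cells, had intergenic peaks upstream, 13.374 kb away in replicate 1 and 50.743 kb away in replicate 2. Max (chr12:76937269-76962201, − strand, ENSMUSG00000059436.13) had the largest distance, 614.852 kb in replicate 1, and 37.874 kb in replicate 2. For none of the 4 was the nearest peak the same in both lists. Widening the window to 2000 bp on both sides could not add a promoter peak at these 4 genes, since their nearest peaks lay 12.917 kb or more from a TSS.

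**Figure D3:**
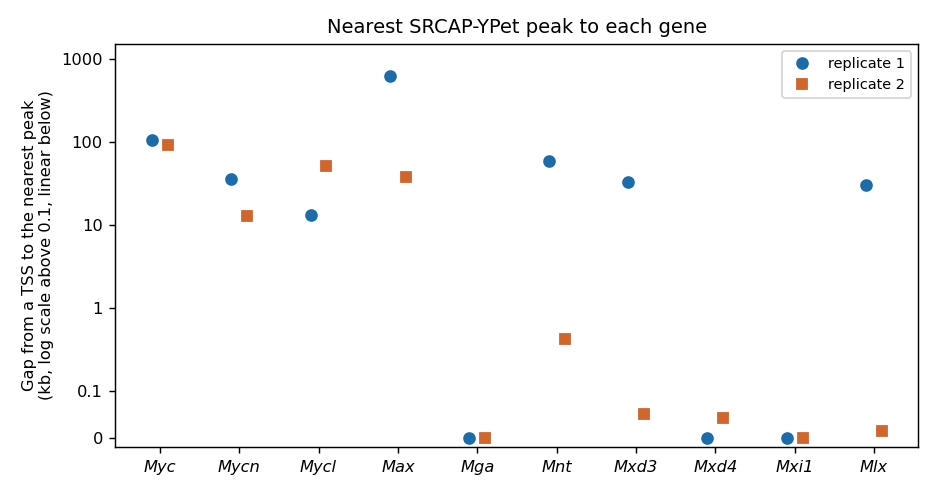
Distance from a TSS of each member to the nearest edge of a called peak, in kb on an axis that is logarithmic above 0.1 and linear below, with replicate 1 as circles and replicate 2 as squares; 0 means that the peak holds a TSS. Myc, Mycn, Mycl and Max lie above 10 kb in each replicate, and Mnt, Mxd3 and Mlx lie under 1 kb in replicate 2 and at 30.152 kb or more in replicate 1.

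Members were then searched for the E-box. CACGTG was found in 1 of 3 member peaks in replicate 1 and in 3 of 7 in replicate 2, where 9.81% and 11.0% of all promoter peaks held it. In windows of 500 bp about each midpoint, which removes peak width, the counts stayed at 1 and 3, and 12.8% of all promoter peaks had a match in each list. At Mxd4 the E-box covered −209 to −204 bp from the TSS and was inside the peak in both replicates. At Mxd3 it covered −191 to −186 bp and at Mlx −27 to −22 bp. The Mga, Mnt and Mxi1 peaks had none. So few peaks give a description of these genes only, and a match does not show that the network binds there.

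The RefSeq promoter table (GRCm38.p6), with 250 bases before and 50 after each gene's start, held 11 promoters of 9 members. Of these, 4 held CACGTG, at Max, Mnt, Mxd4 and Mlx, where 7.15% of all 32851 promoters had it. At Max it covered −3 to 2 bp around the RefSeq start, with the start at 0, and at Mnt −123 to −118 bp, neither of them under a called peak. Thus an E-box near the start occurred in members with and without SRCAP peaks. GGGCGG was found in 9 of the 11 member promoters and in 35.7% of all promoters, and GGCGGGA in 5 and in 11.3%. Mxi1 has several of the 11, some of them overlapping and all with GGGCGG, so these are counts of promoters and not of genes. CCAAT was found in 2 of the 11, Mxd4 and Mlx, and in 37.4% of all. Member promoters had a median GC content of 63% and 22 CpG dinucleotides, beside 52.7% and 7 for all promoters.

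In the peaks themselves, Mxd4 had the most CCAAT matches of any member in replicate 1, where its peak held 5. Its shorter replicate 2 peak held 2, as many as the Mlx peak. Mxd3 had the most GC boxes, 4, with 2 E2F matches and an NRF1 core. Mga had 2 NRF1 cores in replicate 1 and 3 in replicate 2. The upstream Mnt peak held 2 ETS matches and 2 GC boxes, the intronic Mnt peak 0 of the 7 motifs. CCAAT occurred in 5 of the 7 member peaks of replicate 2, beside 42.5% of all its promoter peaks, and in 2 of 3 in replicate 1, beside 42.3%. GGGCGG occurred in 4 of 7, beside 66.7%, and in 2 of 3, beside 64.8%. In windows of 500 bp, the replicate 2 counts were 6 of 7 for each motif, beside 48.1% for CCAAT and 74.1% for GGGCGG, so the side of the background on which GGGCGG fell depended on the window. ATGGCGG occurred in 0 of 7, beside 10.8%.

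Genes that work with the network were counted by the same rule, and their shares are read beside the 15.7%, 30.4% and 12.0% of all protein-coding genes in replicate 1, replicate 2 and both. Of the 3 network genes outside the 10, Mlxip, whose product is the Mondo partner of MLX, had a promoter peak in both replicates, 430 bp wide with a score of 29 and 369 bp wide with a score of 51. Its peaks, with midpoints at −273.5 bp and −243 bp from the TSS, lay also in the promoter window of Gm15747, and each held an E-box. Mxd1, the founding MXD repressor, had one in replicate 1 only (305 bp, score 58), and Mlxipl, encoding the glucose sensor ChREBP, had none. Among 12 genes of the SIN3-HDAC corepressor, 6 carried a promoter peak in the first replicate (50%), 8 in the second (66.7%) and 5 in both (41.7%). Those ranking best in both lists were Arid4a (scores 66 and 90), Sap30 (57 and 83), Arid4b (102 and 63) and Rbbp4 (83 and 60), subunits of the complex. Among 11 PRC1.6 partners of MGA and MAX, 3 had one in replicate 1 (27.3%) and 6 in replicate 2 (54.5%), with 2 in common (18.2%), Cbx3 (81 and 152), a heterochromatin protein, and Rnf2 (22 and 41), the catalytic RING subunit.

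Among 14 genes for MYC cofactors and turnover, replicate 1 had a promoter peak at 5 (35.7%) and replicate 2 at 8 (57.1%), with 5 in common (35.7%). Usp28 (54 and 94), Skp2 (49 and 130), Usp36 (75 and 51) and Cip2a (37 and 85) ranked best in both lists. Their products act on MYC stability, Usp28 and Usp36 as deubiquitinases, Skp2 as a ubiquitin ligase subunit and Cip2a as a protector from the phosphatase PP2A. Among 16 classic growth targets of MYC, 3 had one in replicate 1 (18.8%) and 11 in replicate 2 (68.8%), with 2 in common (12.5%), Odc1 (52 and 38) of polyamine synthesis and Apex1 (31 and 31) of DNA repair. In replicate 1 and in both lists, the shares of this group were near those of all genes. Of 8 stem cell markers, replicate 1 had a promoter peak at 1, Zfp42, and replicate 2 at 3, Zfp42 among them. A peak is not expression, so the labelled cell type was not checked by this.

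**Figure D4:**
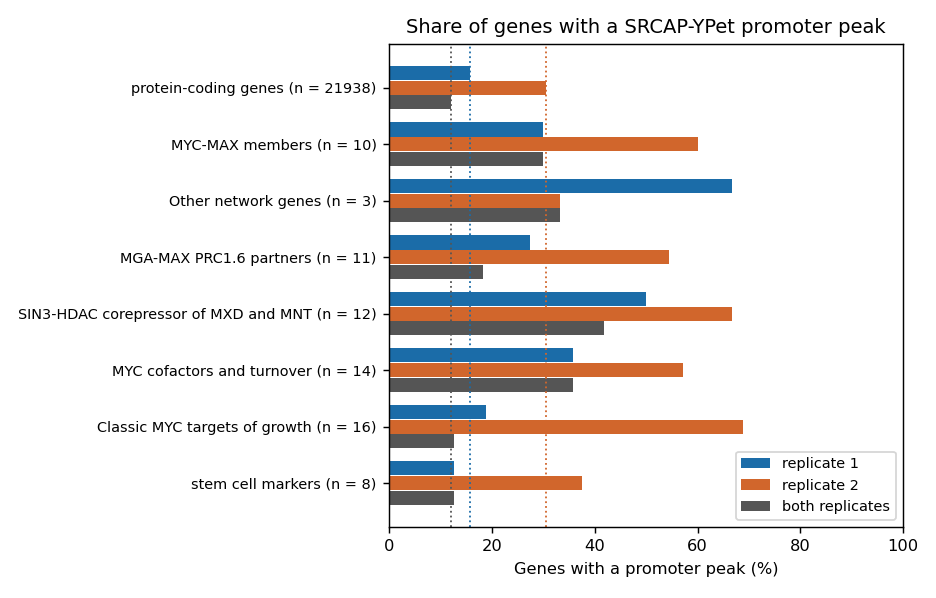
Share of genes (percent, bars from 0) with a SRCAP-YPet promoter peak, by replicate and in both lists, for all protein-coding genes, the 10 members and 6 related lists, with dotted lines at the shares of all protein-coding genes. The members read 30%, 60% and 30%, beside 15.7%, 30.4% and 12.0% for all genes.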

How the data were processed

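The authors deposited 1 list of peaks per library, made with MACS2 on paired-end fragments of that library, with a whole-number score per peak and no read counts. The submitters' processing notes also name STAR, Picard, mm10 and dm6. The methods give unique alignments, duplicate removal, spike-in downsampling and a blacklist filter for ChIP-seq and CUT&Tag together, and whether each step, or a control library, applied to these lists is not given in the sources used here. Both lists start at a score of 13, the truncated value of 10 × −log10 q at q = 0.05, and the score was read on that scale.

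Peaks were overlapped by at least 1 bp with the promoter windows of GENCODE release 21 genes, mitochondrial genes left out. Midpoint distances run to the nearest TSS of the gene, or of any gene in the medians for all promoter peaks. Distances in kb run from the nearest edge of the peak. Motifs were counted on both strands of the mm10 sequence, and promoter sequences came from RefSeq, with 9 of 10 members matched and no entry for Myc. Named genes were the 10 members, genes sharing a window with their peaks, every gene of a list of 3 or fewer, and at most 4 genes per list with a peak in both replicates, by their worse rank. Members, lists and settings were chosen with earlier results of these data known. The overlap code was tested on simulated data. The software was samtools 1.23.1, matplotlib 3.10.9 and scipy 1.17.1, with pandas 2.3.3 and numpy 2.4.6 under Python 3.11.15.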

Additional observations from a re-analysis of the deposited data

How the results depend on the processing

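Alternatives covered the promoter window, the transcripts that give a TSS, the overlap, the score, the list length, repeats and the motif window. Of 193 values from 23 results, 146 stayed within their bounds and 47 moved past them. The bounds were 1.5-fold for a count, the 95% Wilson interval for a percent of genes, and 1 SD between replicates for a width or distance. With a score of at least 50, which left 1275 and 3879 peaks, members with a promoter peak numbered 1 in replicate 1, 3 in replicate 2 and 0 in both, a mean of 2. The background was 4.21%, 13.1% and 2.99%. With so low a background in both lists and 10 members, a count of 0 is not read as a share below it. With the TSS required inside the peak, there were 3 members in replicate 1, 2 in replicate 2 and 2 in both, a mean of 2.5. The background was 9.73%, 20.6% and 6.97%, which put replicate 2 at its background. Its count fell because the Mnt, Mxd3, Mlx and replicate 2 Mxd4 peaks end before a TSS or start past it. With the longer list shortened to the other's length, replicate 2 had 3 members and both lists shared 1, beside 19.2% and 9.69% of all genes. The median width of member peaks was 298 bp in replicate 1 (score) and 373.5 to 570 bp in replicate 2, and the median distance 33.5 bp and 36.5 to 336.5 bp, where they moved. Leaving out 1 replicate gave a mean from 3 to 6, which is the other list's count. No paired analysis was possible because the libraries form a single group. Depth is unknown, which limits every statement on peaks found in 1 list only, and the cause of the difference between the lists was not tested.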

Other observations

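Peaks near the members but outside their promoters were also listed, in the gene and 50 kb on either side. The neighbouring genes named here were chosen after their values were seen. Mxd4 had a further peak found in both replicates, at chr5:34169382-34169696 (score 58) and chr5:34169424-34169674 (score 50), in the promoter windows of Haus3 and Poln. It lay 4.187 kb and 4.209 kb past the end of Mxd4, and in each list its score was above that of the Mxd4 promoter peak. Mxi1 had an intergenic peak in both replicates at chr19:53421236-53421511 (score 28) and chr19:53421061-53421782 (score 33), 45.426 kb and 45.251 kb downstream of the gene. These were the only peaks outside promoter windows of the members that were called near a member in both lists.

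In replicate 2 alone, the strongest peak near Mnt by score was neither of its promoter peaks but an intergenic one at chr11:74848010-74848356 (score 75), 2.285 kb past the end of the gene. Mga had an intergenic peak 23.885 kb upstream (score 60) and one at the promoter of Mapkbp1, 2.915 kb past its end (score 32). Mlx had one at the promoter of Psmc3ip, 3.31 kb past its end (score 40), which was above the score of 26 at Mlx itself.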
